A study of Mus musculus with 3 samples.

Results

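The cells described here are the mouse alveolar macrophages with the highest share of transcripts from 9 interferon-stimulated genes. A cell barcode was taken as an alveolar macrophage when it held at least 5000 unique molecular identifiers (UMIs, each a counted transcript), at least 300 genes, at most 10% mitochondrial UMIs and at least 3 of the 8 macrophage markers Marco, Siglecf, Krt79, Ear2, Atp6v0d2, Bhlhe41, Chil3 and Pparg. Of 15809 barcodes in 3 libraries, 10844 passed. The members were chosen by a measured value: macrophages were ranked over the pooled libraries by the share of their UMIs from Ifit1, Ifit2, Ifit3, Rsad2, Isg15, Cxcl10, Irf7, Oasl2 and Usp18, here called the rule genes, and the top 1.5% were kept. Levels of these 9 genes and of the 8 markers in members are therefore a description, and so is every comparison of members with the other macrophages. This gave 163 members, 52 from filtered air, 19 from 1 ppm ozone and 92 from 1.5 ppm ozone. The other 10681 macrophages are called the rest.

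The study profiled the immune cells washed out of the airspaces of the right lung by droplet single-cell RNA sequencing from the poly(A) end of transcripts. The animals were wild-type (WT) mice of the C57BL/6J strain at 12 weeks of age. They were exposed for 3 h to filtered air, to ozone at 1 ppm or to ozone at 1.5 ppm, and lavaged 22 to 24 h afterwards. The cells of the 3 to 4 mice of a group went into 1 library, so the mice of a pool cannot be told apart, no group has a replicate, and no test between groups is possible. All intervals below are 95% intervals that cover counting error only, not the spread between mice. Ozone is an oxidant air pollutant that injures the airway lining.

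Alveolar macrophages are the resident phagocytes of the airspace and clear surfactant and inhaled particles. Type I interferons bind the receptor chains encoded by Ifnar1 and Ifnar2, and the signal reaches the nucleus as a transcription factor complex, which binds interferon-stimulated response elements near its target genes. Those targets include Ifit1, Ifit2 and Ifit3, whose products bind foreign RNA, Rsad2, which encodes the antiviral enzyme viperin, Isg15, a ubiquitin-like modifier, and Usp18, which removes that modifier and dampens the receptor. Irf7 encodes a transcription factor that drives interferon genes, Oasl2 belongs to the 2′-5′-oligoadenylate synthetase family, and Cxcl10 encodes a chemokine that attracts T cells and NK cells.

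The promoters of the rule genes were searched for GAAANNGAAA, a core of the response element, on both strands (TTTCNNTTTC on the opposite strand), since these genes were scored together. Promoter sequence from 250 bases before to 50 bases after the start site came from RefSeq (GRCm38.p6). A match was present in 5 of the 8 rule genes found in the table, against 1079 of 27025 genes overall (3.99%), or 1131 of 32851 promoters (3.44%). The 5 matching stretches follow, 5′ to 3′ along the gene, with every match in capitals.
Ifit1, chr19:34640760-34640838, plus strand: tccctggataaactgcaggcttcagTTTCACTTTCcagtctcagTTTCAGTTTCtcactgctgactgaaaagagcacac
Ifit3, chr19:34583348-34583441, plus strand: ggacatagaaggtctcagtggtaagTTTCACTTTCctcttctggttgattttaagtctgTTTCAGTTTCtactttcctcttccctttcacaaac
Rsad2, chr12:26456538-26456597, minus strand: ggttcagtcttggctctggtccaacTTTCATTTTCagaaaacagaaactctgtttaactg
Isg15, chr4:156200850-156200921, minus strand: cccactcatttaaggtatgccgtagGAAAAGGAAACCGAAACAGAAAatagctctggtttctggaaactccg
Cxcl10, chr5:92349068-92349127, minus strand: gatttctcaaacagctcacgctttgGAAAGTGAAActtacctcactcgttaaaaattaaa

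Ifit1 and Ifit3 each carried 2 separate matches on the opposite strand, and the matches of Isg15 were 3 that overlap. Ifit2, Irf7 and Oasl2 had no match in this window. Among 60 other type I interferon-stimulated genes, 22 of the 47 found in the table had a match (46.8%), and among guanylate-binding and immunity-related GTPases and their partners 9 of 13 did (69.2%). Interferon ligands had a match in 11 of 19 (57.9%), although no ligand transcript was found in members. Class I presentation genes had one in 5 of 17, signalling and regulatory factors in 3 of 13 and sensors in 2 of 15. None of 5 interferon receptor promoters had one. None of 15 inflammatory cytokine and NF-kB target promoters and none of 9 Nrf2 antioxidant and metallothionein promoters had one. With 3.99% of all genes matching, lists this short can lack a match at the overall share, so these last counts set no contrast. A match describes letters only and is no evidence of binding.

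The score separated a small set of cells from a long tail. No rule-gene UMI was found in 91.3% of the macrophages. The highest member held 172 rule-gene UMIs per 10000 UMIs and the median member 1.53. The lowest member had 1.05252 and the highest cell outside had 1.05208, with 29 members within 10% above and 49 other cells within 10% below the limit. Of the members, 64 held a single rule-gene UMI and 37 held 2. Those with 1 UMI had a median of 8110.5 UMIs in all and at most 9501, so the rank of a cell with 1 UMI was set by its depth.

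The members are therefore given in 2 sets, by the number of rule genes a cell held. The 28 with at least 3 rule genes, called multi-gene members, held 1443 of the members' 1747 rule-gene UMIs (82.6%). They came 14 from filtered air, 2 from 1 ppm and 12 from 1.5 ppm. The other 135, called few-gene members, held 304. The 2 multi-gene members from 1 ppm had 21812 UMIs in all, so each 1 ppm value of multi-gene members rests on 2 cells. Only 1 macrophage of the rest had 3 rule genes or more. Median depth was 15405 UMIs in multi-gene members, 9492 in few-gene members and 14222 in the rest. All 9 genes were present in 4 members, and at least 5 in 17, of which 9 came from filtered air, 0 from 1 ppm and 8 from 1.5 ppm.

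**Figure D1:**
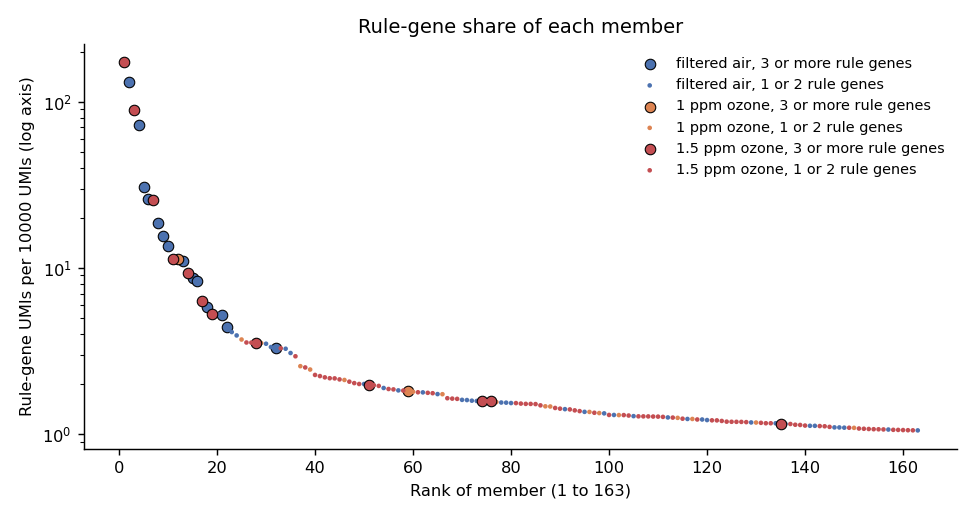
Rule-gene UMIs per 10000 UMIs (log axis) of each of the 163 members, ranked from highest to lowest, with library by colour and large outlined points for members with at least 3 rule genes. The multi-gene members fill most of the first 22 ranks, and the remaining curve is a shallow slope down to 1.05252.

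As a description of what was ranked, Rsad2 reached 136 CPM (counts per 1000000 UMIs) in filtered air members, 6.98 in 1 ppm and 115 in 1.5 ppm, with 0.183, 0.0536 and 0.113 CPM in the rest of the same libraries. Ifit1 had 82.6, 3.49 and 68.3 CPM in members, and only 10 UMIs in all of the rest. Cxcl10 had 419, 52.4 and 189 CPM in members. For these 3 genes filtered air and 1.5 ppm members were high and 1 ppm members low. Irf7 did not follow this order, with 44.9 CPM in filtered air members, 27.9 at 1 ppm and 15.2 at 1.5 ppm. The remaining rule genes were also lowest in 1 ppm members. The cells were picked by these same values, so the order of the libraries is a description only. Few cells carried most of the members' rule-gene UMIs. The 3 members with the most rule-gene UMIs, 428 and 192 in 1.5 ppm cells and 379 in a filtered air cell, held 57.2% of them, with 82.2% of Rsad2 and 70.3% of Cxcl10.

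Isg15 differed from the other rule genes in its spread. It was found in 111 of 163 members (68.1%) but also in 517 cells of the rest (4.84%), where it gave 544 of 857 rule-gene UMIs. In 63 members every rule-gene UMI was Isg15, and 38 of these had only 1 UMI. Such cells made up 25% of filtered air members, 47.4% of 1 ppm members and 44.6% of 1.5 ppm members. Outside the members, Isg15 stood at 2.19 CPM in filtered air, 3.32 at 1 ppm and 3.51 at 1.5 ppm, a ratio over air of 1.52 (1.16 to 1.98) and 1.60 (1.28 to 2.01). No cell type in these libraries is known to lack interferon-stimulated genes, so the share of free RNA in such counts was not tested.

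The share of macrophages that were members was 1.58% (52 of 3287, exact binomial interval 1.18 to 2.07%) in filtered air, 0.897% (19 of 2117, 0.541 to 1.40%) at 1 ppm and 1.69% (92 of 5440, 1.37 to 2.07%) at 1.5 ppm. The ratio of shares over air was 0.567 (0.317 to 0.976) at 1 ppm and 1.07 (0.753 to 1.53) at 1.5 ppm. Depth differed between the libraries, with median macrophage UMIs of 13936, 16047 and 13566.5 in the same order, and a deeper library places fewer cells with a single UMI above the limit.

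Multi-gene members made up 0.426% (0.233 to 0.714%) of macrophages in filtered air, 0.0945% (0.0114 to 0.341%) at 1 ppm and 0.221% (0.114 to 0.385%) at 1.5 ppm. The ratio over air was 0.222 (0.0245 to 0.966) at 1 ppm and 0.518 (0.219 to 1.21) at 1.5 ppm, the second interval including 1. Of the 2 cells at 1 ppm, 1 held 52 UMIs of neutrophil markers. Few-gene members stood at 1.16%, 0.803% and 1.47%. After every macrophage was thinned to 5000 UMIs, which left none out, cells with at least 2 rule-gene UMIs made up 0.669% (0.420 to 1.01%, 22 cells), 0.142% (0.0292 to 0.414%, 3 cells) and 0.331% (0.196 to 0.522%, 18 cells). Cells with at least 1 UMI made up 2.83%, 2.65% and 3.31% after thinning, and 7.27%, 8.93% and 9.49% before it. When Isg15 was left out of the score, the 1.5 ppm ratio was 0.647 (0.462 to 0.907) in place of 1.07. At 1 ppm it was then 0.350. The order of the 1.5 ppm and air libraries therefore changed with Isg15, while the 1 ppm value was lowest in all of these counts except cells with at least 1 UMI before thinning.

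**Figure D2:**
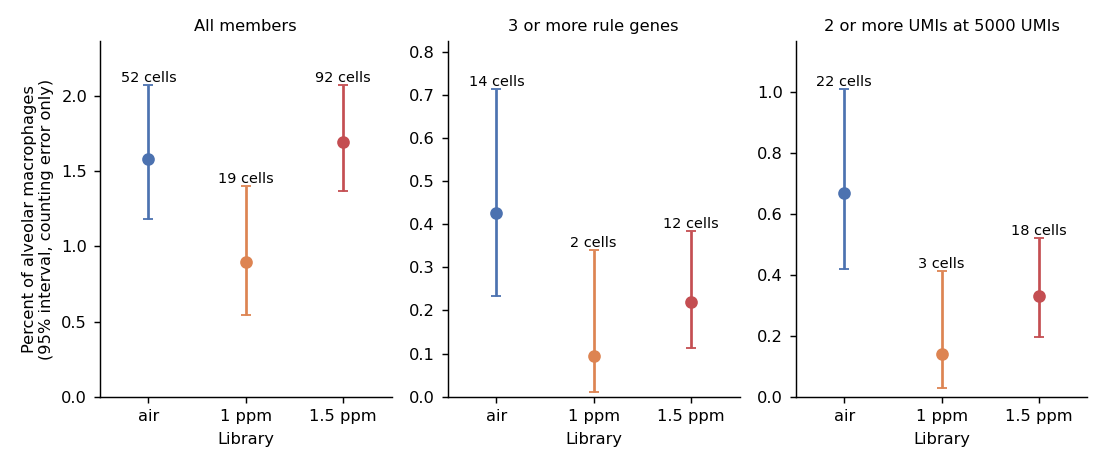
Percent of alveolar macrophages in each library that were members (left), members with at least 3 rule genes (middle) or cells with at least 2 rule-gene UMIs after thinning to 5000 UMIs (right), with 95% intervals for counting error and cell numbers. Filtered air and 1.5 ppm are level in the left panel, and filtered air is highest in the others.

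Genes that the rule did not use show whether these cells carried a wider interferon pattern. The observed UMIs of a set of members were compared with the UMIs expected if each member had the composition of the rest of its own library. Over all 163 members, 191 of 8199 genes with at least 30 observed or expected UMIs were higher by 2-fold or more (2.33%), and 9 were lower by as much (0.11%). With at least 10 expected UMIs in place of that filter, 117 of 9957 were higher (1.18%) and 55 lower (0.552%). Many of the 20 highest ratios came from secretory airway genes of a pair of cells, described further on. The interferon-stimulated genes among the 20 were Oasl1 (76 UMIs, 0.14 expected), Ifit1bl1 (41 and 0.129), Cmpk2 (47 and 0.302), Slfn5 (51 and 0.533), Oas3 (51 and 0.56) and Ifi209 (48 and 0.76). None had more than 0.76 expected UMIs, so each could enter only by being high in members. They are given as a description. The lowest ratios included Coro2b (13 and 51.4), Dysf (19 and 45.9) and Prag1 (33 and 77.8).

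The 60 other type I interferon-stimulated genes were summed per cell. Multi-gene members had a median of 59.4 UMIs of these genes per 10000 UMIs (17.3 to 283), few-gene members 14.8 (2.55 to 55.7) and the rest 13.5 (0 to 51.2). All 28 multi-gene members lay above the median of the rest, and 15 lay above its highest cell, 10 from filtered air and 5 from 1.5 ppm. Of the 135 few-gene members 84 lay above that median and 1 above the highest cell. A median of 31 of the 60 genes was detected in a multi-gene member, against 11 in a few-gene member and 12 in the rest. By library, the multi-gene medians were 67.6 (22.9 to 283) in filtered air, 32.8 (31.5 to 34.1) at 1 ppm and 42.1 (17.3 to 219) at 1.5 ppm, and the 3 ranges overlapped.

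**Figure D3:**
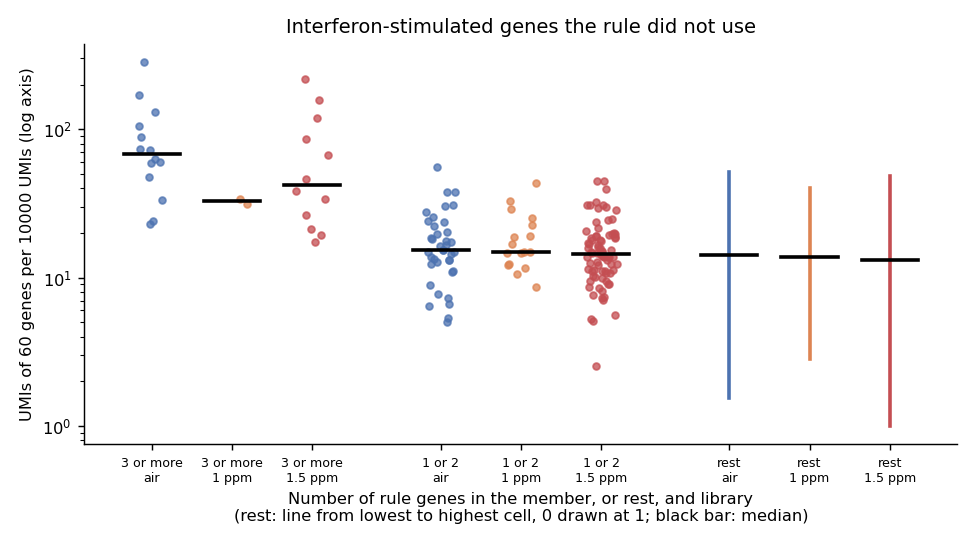
UMIs per 10000 UMIs (log axis) of 60 interferon-stimulated genes outside the rule, per cell, for members with at least 3 rule genes, members with 1 or 2 and the rest, by library. Points are cells, black bars medians, and for the rest a line runs from the lowest to the highest cell. Multi-gene members reach 283, while few-gene members and the rest share medians near 14.

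Summed over the multi-gene members, the 60 genes gave 3758 UMIs where 763 were expected, a ratio of 4.92 (4.77 to 5.09), with 5.83 in filtered air, 2.31 at 1 ppm and 4.44 at 1.5 ppm. All 57 genes detected were above their expected value, against 6604 of 12818 genes detected outside the rule. For genes with a low expected value, such as Oasl1 (0.0335) and Cmpk2 (0.0690), any UMI gives this outcome. Ifi44, Ifi44l and Apol9a had no UMI. Over all genes with at least 30 observed or expected UMIs, 190 of 4084 were higher by 2-fold or more in multi-gene members (4.65%) and 73 lower (1.79%). Among the 25 listed genes with at least 10 expected UMIs, all were above it and 22 were at least 2-fold above, with a median log2 ratio of 1.74. Over all 6997 genes at that level the median was -0.10, with 2.12% at least 2-fold higher. The ratio of sums was 3.73 (3.59 to 3.88) without the 3 members with most rule-gene UMIs, and 2.79 (2.65 to 2.94) over the 18 multi-gene members left without the first 10 ranks. In few-gene members it was 1.29 (1.25 to 1.34). The label of an interferon-high macrophage is thus carried by the multi-gene members, and few-gene members differed little from the rest in this readout.

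A ranking of all macrophages by these 60 genes alone recovered part of the set. Its top 28 cells held 17 of the 28 multi-gene members, and its top 163 held 23 of these (82.1%) but only 42 of the 163 members (25.8%). The median rank was 14.5 (1 to 2131) for multi-gene members and 4170 (16 to 10833) for few-gene members, of 10844.

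Among single genes, Oasl1, a relative of the oligoadenylate synthetases, gave 184, 138 and 88.3 CPM in multi-gene members of filtered air, 1 ppm and 1.5 ppm, with 0.0203, 0.0268 and 0.0900 CPM in the rest. It was found in 11 of the 28. The 1 ppm value is 3 UMIs, all in the rank 12 cell, which held 52 UMIs of neutrophil markers and 2 of Chil3. Oas3, a synthetase that activates RNase L, was found in 17 and had 147, 91.7 and 47.3 CPM, and Rtp4 was found in 20 with 106, 45.8 and 85.2 CPM. The 1 ppm values of Oas3 and Rtp4 rest on 2 cells with 21812 UMIs in all. Cmpk2, a mitochondrial nucleotide kinase whose gene neighbours Rsad2, was found in 8 members and in none from 1 ppm. The rest stood under 1 CPM for all 4 genes.

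Genes that the rest carried at higher levels also stood above it in multi-gene members, here Trim30a, Parp14 and Ifi204, chosen after their values were seen. Trim30a, a tripartite-motif protein, had 809, 367 and 382 CPM in multi-gene members and 92.1, 83.6 and 89.4 in the rest, a ratio of 6.07 (5.41 to 6.80), and was found in 27 of 28. Parp14, an ADP-ribosyltransferase, had a ratio of 8.27 (7.10 to 9.58). Ifi204, a PYHIN-family protein, had a ratio of 13.0 (11.1 to 15.2). In few-gene members the ratios were 1.26, 1.15 and 1.86.

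**Figure D4:**
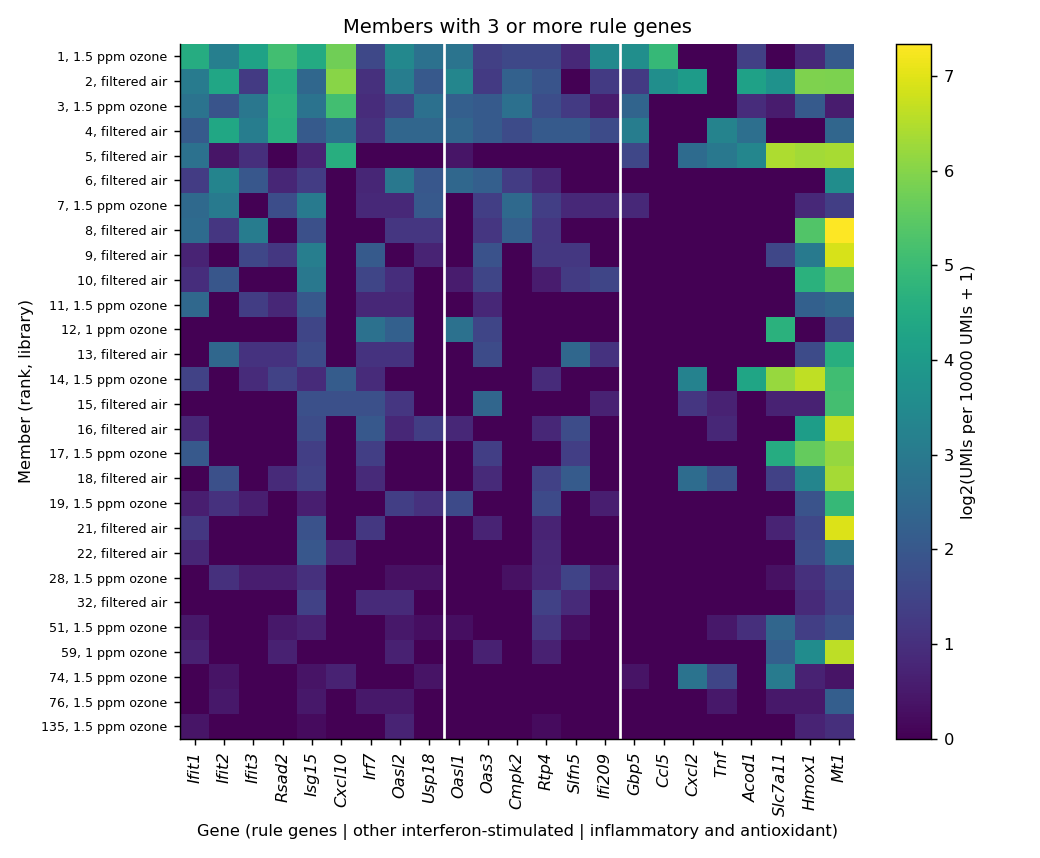
Heat map of the 28 members with at least 3 rule genes (rows by rank and library) for 9 rule genes, 6 other interferon-stimulated genes and 8 inflammatory or antioxidant genes, coloured by log2(UMIs per 10000 UMIs + 1). The 4 highest ranks hold all 9 rule genes, and Mt1 is present in all 28 members.

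No type I interferon transcript was found in members. Ifnb1 and all alpha genes listed had 0 UMIs over 15809 barcodes, which allows up to 0.0152 CPM, apart from 1 UMI of Ifnab in a 1.5 ppm macrophage outside the members. Ifnl2, Ifnl3 and Ifne had 0 UMIs. Ifng, the type II interferon made by T cells and NK cells, had 14 UMIs in 7 barcodes, 13 of the UMIs at 1.5 ppm and 1 at 1 ppm, and none of those barcodes was a macrophage of the rule. Ifnk had 105 UMIs over all barcodes and none in a member, which allows up to 1.84% of members with a UMI and does not limit the share that express the gene.

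The interferon receptors were close to their expected level in multi-gene members, with a ratio of sums of 0.919 (0.794 to 1.06). Ifnar1 gave 17 UMIs where 12.7 were expected and Ifnar2 42 where 43.3 were. Ifngr1 and Ifngr2, the chains of the type II receptor, gave 55 where 75.1 were expected and 51 where 46.5 were. In few-gene members the receptor sum was 0.999 of expected.

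The factors that carry the signal stood higher. Stat2 had 221, 183 and 218 CPM in multi-gene members of filtered air, 1 ppm and 1.5 ppm, against 42.3, 36.7 and 38.3 in the rest, a ratio of 5.47 (4.53 to 6.54). Irf9, its partner in the complex, had 110, 138 and 59.9 CPM against 15.7, 13.6 and 13.9, a ratio of 5.66 (4.14 to 7.58). Both are themselves interferon-stimulated, and both were above the rest in all 3 libraries. At 1 ppm this rests on 2 cells with 21812 UMIs in all, 1 of which held 52 UMIs of neutrophil markers. Irf1, a transcription factor also induced by type II interferon, had a ratio of 3.46 (2.45 to 4.73). In few-gene members the ratio was 1.09 for Stat2 and 1.84 for Irf9. The list of 14 signalling and regulatory factors gave a ratio of 1.73 (1.61 to 1.86), with 12 of 14 above expected. Over all genes with at least 10 expected UMIs, 2785 of 6997 were above expected in multi-gene members. At that level 8 of 10 of this list were, and 10 of 12 sensors, 2 of 2 GTPases and partners and 12 of 13 class I genes. Counts over whole lists, here and below, also hold genes with a low expected value, where any UMI lies above it. Over all genes detected outside the rule, 6604 of 12818 were above expected.

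The cytosolic RNA sensors were among the higher genes. Ifih1, which encodes MDA5, gave 185 UMIs where 21.8 were expected, a ratio of 8.49 (7.30 to 9.83), but 76 of them came from 1 cell. Rigi, which encodes RIG-I, gave a ratio of 6.31 (5.25 to 7.53) with at most 15 UMIs in a cell. Cgas, the DNA sensor cGAS, gave 2.29 (1.65 to 3.08). The 19 nucleic acid and microbial sensors together stood at 1.79 times expected, and 15 of 19 were above it. Without the first 10 ranks this was 1.20 (1.08 to 1.32).

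GTPases that interferon-gamma is best known to induce, and their partners, were also above the rest in multi-gene members. Their sum was 3.17 times expected (2.91 to 3.46), 2.89 in filtered air, 2.97 at 1 ppm and 3.41 at 1.5 ppm. The 1 ppm value is 19 UMIs where 6.41 were expected. All 18 genes detected of the 21 were above expected, and only 2 of the list had at least 10 expected UMIs. The ratio of the sum was 2.17 (1.94 to 2.43) without the 3 members with most rule-gene UMIs. Irgm1, a regulator of vacuolar GTPases, had a ratio of 8.55 (6.34 to 11.3) and was found in 18 members. Gbp5, a guanylate-binding protein linked to inflammasome activity, gave 56 UMIs where 1.45 were expected, but in 7 members and with 28 UMIs in 1 of them. In few-gene members the list stood at 1.04 (0.954 to 1.13), an interval that includes 1.

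Class I antigen presentation was moderately higher. The 20 genes gave 1.50 times the expected UMIs (1.44 to 1.57), 1.83 in filtered air, 1.41 at 1 ppm and 1.26 at 1.5 ppm, and 19 of 20 were above expected. B2m, the light chain of class I molecules, was found in all 28 members, with 1581, 1192 and 848 CPM against 929, 866 and 726 in the rest. Nlrc5, the transactivator of class I genes, had a ratio of 8.93 (6.15 to 12.5). Tapbp (tapasin) and Tap1, of the peptide-loading machinery, had ratios of 2.34 (2.00 to 2.72) and 3.38 (2.20 to 4.96), and H2-K1 one of 1.32 (1.18 to 1.49). Class II presentation stood at 0.939 (0.889 to 0.992), 1.19 in filtered air, 0.574 at 1 ppm and 0.803 at 1.5 ppm. Its interval included 1 without the member with airway secretory genes (0.971, 0.916 to 1.03) and with expected values from cells of the same depth class (0.964, 0.912 to 1.02).

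**Figure D5:**
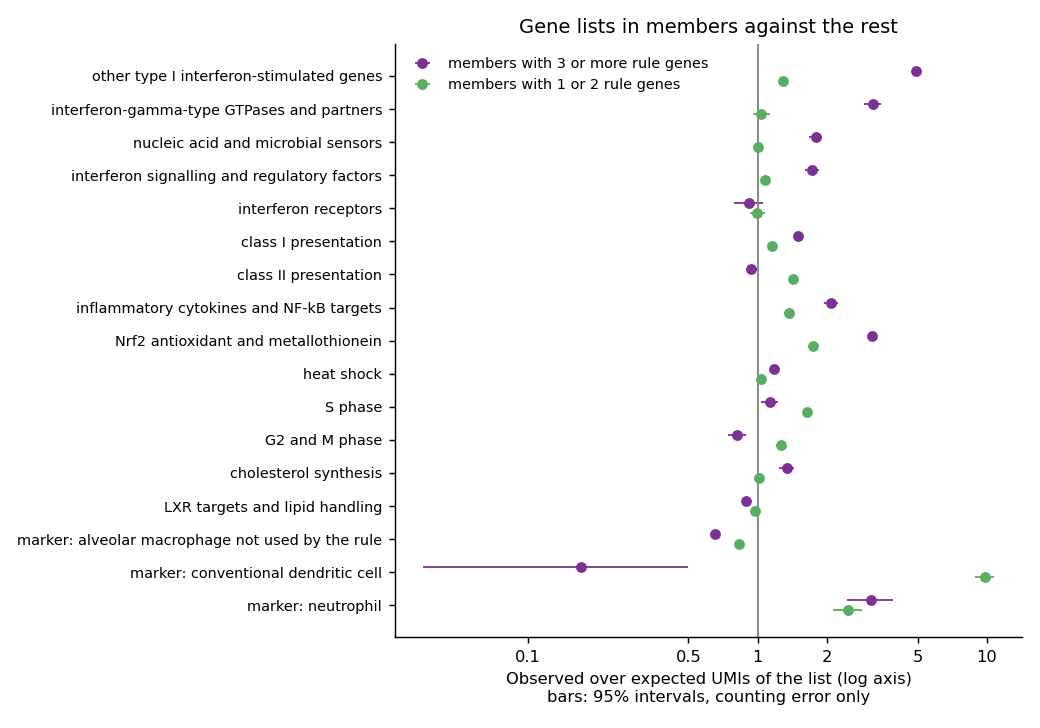
Observed over expected UMIs (log axis) of 17 gene lists in members with at least 3 rule genes (purple) and with 1 or 2 (green), with 95% intervals for counting error. Interferon-stimulated genes and GTPases stand at 4.92 and 3.17 in purple and at 1.29 and 1.04 in green.

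Within the multi-gene members, some inflammatory transcripts were concentrated in cells with Cxcl10. This split was chosen after values were seen and is given as a description. Cxcl10 was found in 9 of the 28, 5 from filtered air and 4 from 1.5 ppm, with a median depth of 21643 UMIs against 13542 in the other 19. Acod1, which makes the metabolite itaconate in activated macrophages, had 111 UMIs in 6 of the 9 and 5 UMIs in 1 of the 19. Its highest cell held 50 of these UMIs, and it was found in 0.449% of the rest. Gbp5 had 55 UMIs in 6 and 1 in 1. Cxcl2, a neutrophil chemokine, had 90 in 5 and 6 in 1. Ccl5 had 106 UMIs in 2 cells, 73 of them in the first rank, and none in the 19. Other inflammatory genes showed this less. Tnf had 35 UMIs in 4 of the 9 and 7 in 4 of the 19. Ccl3 had 5 in 4 and 3 in 1, and Ccl4 had 8 in 3 and 2 in 2. The deeper cells and the cells with these genes were thus in part the same cells, and the part of depth was not tested.

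Cxcl10 and the Ifit and Rsad2 genes did not always share cells. Over all macrophages 82 held a Cxcl10 UMI, and 12 of them held a UMI of Ifit1, Ifit2, Ifit3 or Rsad2. Of 15 members with at least 4 Cxcl10 UMIs, 6 from filtered air, 2 from 1 ppm and 7 from 1.5 ppm, 6 held one. The fifth rank shows the contrast, with 70 UMIs of Cxcl10, 0 of Rsad2, 257 of Slc7a11 and 240 of Hmox1, where the first rank had 130 of Cxcl10, 83 of Rsad2, 0 of Slc7a11 and 2 of Hmox1.

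Genes of the Nrf2 antioxidant response and the metallothioneins were higher in both sets. Nrf2 is the transcription factor that answers oxidants, and metallothioneins bind zinc and copper. The 12 genes gave 3.15 times the expected UMIs (3.07 to 3.23) in multi-gene members, 4.74 in filtered air, 5.57 at 1 ppm and 1.57 at 1.5 ppm, and 1.74 (1.70 to 1.77) in few-gene members, 2.13, 1.41 and 1.57 by library. All 12 were above expected in both sets, as were all 10 with at least 10 expected UMIs. Over all genes with at least 10 expected UMIs, 2785 of 6997 were in multi-gene members and 4292 of 9523 in few-gene members. The 1 ppm value of multi-gene members rests on 2 cells.

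Hmox1, the haem-degrading enzyme, had 2528, 825 and 580 CPM in multi-gene members of filtered air, 1 ppm and 1.5 ppm, against 374, 169 and 179 in the rest, a ratio of 5.29 (4.92 to 5.69). Slc7a11, the cystine importer, had a ratio of 17.5 (15.9 to 19.3), but 257 of its 466 UMIs came from 1 cell. Mt1 was found in all 28 members, with 6168, 7335 and 606 CPM against 1240, 529 and 465. At 1 ppm, 159 of 160 UMIs of Mt1 and all 18 of Hmox1 came from the rank 59 cell. Mt1 did not follow Cxcl10: its median was 5.90 per 10000 UMIs in the 9 cells with Cxcl10, 23.2 in the other 19 and 2.27 in the rest. Hmox1 had a median of 2.21 in both. In this list, then, filtered air members stood farther above their own library than 1.5 ppm members did.

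Macrophage identity genes were lower in members. Chil3, a marker that the rule required only as 1 of 8, had a median of 48.8 UMIs per 10000 in multi-gene members, 63.6 in few-gene members and 70.5 in the rest. For the 14 alveolar macrophage markers outside the rule the multi-gene sum was 0.656 of expected (0.634 to 0.678), with 13 of 14 below, and the few-gene sum 0.831. Over all genes with at least 10 expected UMIs, only 2785 of 6997 were above expected in multi-gene members. Mrc1, the mannose receptor, had 561, 413 and 773 CPM in multi-gene members against 1387, 1245 and 1040 in the rest, a ratio of 0.571 (0.514 to 0.631). Krt19, an epithelial-type keratin that these macrophages carry, had a ratio of 0.321 (0.222 to 0.448).

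Cholesterol efflux genes controlled by the sterol receptor LXR were among the lower ones. Abcg1, a cholesterol exporter and also 1 of the 14 markers, gave 344 UMIs where 797 were expected, a ratio of 0.431 (0.387 to 0.480). Abca1, its partner exporter, had a ratio of 0.412 (0.293 to 0.563), and Pltp, the phospholipid transfer protein, gave 10 UMIs where 32.9 were expected. The whole list of 14 LXR and lipid-handling genes stood at 0.894. Over the 18 multi-gene members left without the first 10 ranks it stood at 0.995 (0.953 to 1.04), an interval that includes 1. Over all genes with at least 10 expected UMIs, 2.9% were at least 2-fold lower in multi-gene members, and 5 of 13 of this list were.

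Some members carried genes of other cells. By 3 or 4 of the 8 markers only, 15.3% of members and 3.79% of the rest had entered, and 16 members (9.82%) had less Chil3 than the 1st percentile of the rest. Of those, 8 few-gene members, 5 from filtered air and 3 from 1.5 ppm, held at least 3 UMIs of conventional dendritic cell markers. The dendritic list stood at 9.77 times expected in few-gene members, and at 2.43 over the 126 left without these cells and 1 with airway secretory genes. In multi-gene members it stood at 0.170, with 3 UMIs where 17.7 were expected. In few-gene members Ccl17, a chemokine of mature dendritic cells, gave 232 UMIs in 11 cells where 10.8 were expected, and H2-Eb1, a class II chain, 393 where 77.4 were. Nr4a3, chosen after its values were seen, gave 107 UMIs in 5 cells where 3.80 were expected. The class II ratio in few-gene members was 1.43 (1.39 to 1.47), and 1.04 (1.00 to 1.07) over the 126 cells left.

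A further 2 members, both from 1.5 ppm, held 99.6% of the members' UMIs of the airway secretory genes Bpifa1, Reg3g and Scgb3a1. One, at rank 135, had 60470 UMIs, all 8 macrophage markers and 2765 UMIs of Bpifa1, and is also a multi-gene member. The other, at rank 132, had 8604 UMIs and 986 of the club cell gene Scgb1a1. Without the rank 135 cell the 60-gene ratio of multi-gene members was 5.33 (5.16 to 5.51).

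Neutrophil markers stood at 3.12 times expected in multi-gene members, where 52 of 77 UMIs lay in the rank 12 cell of 1 ppm, with 5285 UMIs and 2 of Chil3. In few-gene members they stood at 2.48, and the rank 27 cell of 1.5 ppm held 127 of 189. At least 3 UMIs of neutrophil markers were found in 5.52% of members and 6.06% of the rest. T cell, B cell and NK cell markers had 0 UMIs in multi-gene members. Markers of at least 1 other cell type reached 3 UMIs in 42.3% of members and 42.5% of the rest. The types differed within these shares. Epithelial markers did so in 29.4% of members and 35.8% of the rest, and conventional dendritic cell markers in 5.52% and 1.88%. Monocyte and interstitial macrophage markers did so in 7.98% and 2.74%, and their sum over all members was 1.77 times expected (1.47 to 2.11). Doublets were not removed, and their part in these cells was not tested.

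Few-gene members were otherwise close to the rest, with 101 of 7415 genes higher by 2-fold or more (1.36%) and 14 lower (0.189%). With at least 10 expected UMIs these were 75 (0.788%) and 59 (0.62%) of 9523. Among the other lists the S phase genes stood at 1.64 times expected (1.57 to 1.70), 1.53 in filtered air, 2.54 at 1 ppm and 1.53 at 1.5 ppm. Rrm2, a subunit of ribonucleotide reductase, gave 168 UMIs where 74.4 were expected, and Pcna, the replication clamp, 705 where 384 were. When the expected values came from cells of the same depth class the S phase ratio was 1.88 in few-gene and 0.967 in multi-gene members. G2 and M phase genes stood at 1.27 in few-gene and 0.816 in multi-gene members. With expected values from cells of the same depth class these ratios were 1.62 and 0.602. Without the multi-gene member with airway secretory genes, the multi-gene ratio of 0.816 became 0.944 (0.860 to 1.03), an interval that includes 1.

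Between ozone and air, the members of 1 library were set against those of another, at least 2-fold, with at least 30 UMIs over both and at least 50 CPM in the higher. At 1 ppm, 141 of 4417 genes were higher (3.19%) and 225 lower (5.09%) than in filtered air members. In the rest of the same libraries these shares were 0.0496% and 0.149%. The members had 286475 UMIs at 1 ppm and 690282 in filtered air, and the rest 37325842 and 49254024. Counting error is wider in the smaller pools, so the shares of members and rest are not on one footing. With only 19 members at 1 ppm, single cells weighed heavily. Il1b, an inflammatory cytokine, had 164 CPM in 1 ppm members and 15.9 in air members, and 45 of its 47 UMIs came from the rank 12 cell that carried neutrophil markers. Srgn, a granule proteoglycan, had 286 and 65.2 CPM, with 70 of 82 UMIs in 1 cell. H1f5, Cdca3 and Ccna2, genes of dividing cells, had 185, 73.3 and 87.3 CPM against 24.6, 14.5 and 20.3. They lay in 4, 4 and 3 of the 1 ppm members. The highest cell held 32 of 53, 11 of 21 and 11 of 25 of their UMIs there.

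Most of the genes lowest in 1 ppm members lay, in filtered air, in the 5 members with dendritic markers. Ccl17 had 0 UMIs against 145, with a ratio of at most 0.0621 by its interval, Nr4a3 had 0 against 95, and H2-Eb1 had 3 against 216. Those 5 cells held 144 of the 145 UMIs of Ccl17, all 95 of Nr4a3 and 192 of the 216 of H2-Eb1, and 1 ppm had no such member. Of the 366 genes different at 1 ppm, 279 lay on the same side of 0 in the rest and 18 were 2-fold different there in the same direction. The same-side count over all 4417 genes compared is not given here, so 279 has no share to be set against.

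At 1.5 ppm, 125 of 4355 genes were higher (2.87%) and 127 lower (2.92%) than in filtered air members, against 1.51% and 0.337% in the rest. These shares again differ in counting error, with 1318001 UMIs in 1.5 ppm members and 88888427 in the rest of that library. The highest, Bpifa1 with 4030 UMIs against 8, Reg3g, Cyp2f2, Wfdc2, Scgb3a1 and Ltf, are airway secretory genes and came from the 2 members described above. Ccr7, Slamf7, Nr4a3 and Hepacam2 were lower, and the same 5 air members held 35 of 36, 55 of 58, 95 of 95 and 65 of 66 of their UMIs in filtered air. Of the 252 genes different at 1.5 ppm, 221 lay on the same side of 0 in the rest and 58 were 2-fold different there in the same direction. Here too the same-side count over all 4355 genes compared is not given. Mt2 was a different gene that did not rest on a single cell. It had 968 CPM in air members and 89.5 at 1.5 ppm, found in 26 air members and 18 members at 1.5 ppm, a log2 ratio of -3.42. In the rest it had 249 and 58.3 CPM, a log2 ratio of -2.09.

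Over the whole libraries, totals were 59359742, 42825676 and 95403078 UMIs in filtered air, 1 ppm and 1.5 ppm, over 5307, 3233 and 7269 barcodes. The median mitochondrial share of the macrophages was 4.10%, 3.97% and 2.29%. The libraries shared 4, 10 and 4 barcode sequences pairwise, and none of these was a member.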

How the data were processed

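The authors deposited UMI counts, whole numbers for each gene in each barcode. Per the file headers these are output of Cell Ranger 8.0.0. The submitters' processing notes name the build GRCm39 (mm39). How intronic reads were treated was not given in the sources used here. Counts were read with Python 3.11.15, numpy 2.4.6, scipy 1.17.1 and pandas 2.3.3, and plotted with matplotlib 3.10.9. The members, the gene lists and the tests were chosen with earlier results of these data known.

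Expected UMIs of a gene were the UMIs of the members of each library times the gene's share in the rest of that library, summed over libraries. Ratios have exact conditional intervals and shares exact Clopper-Pearson intervals, at 95%. A count of 0 was read as up to 3 counts. Log2 ratios have 1 UMI added to both values. Counts of genes left out the 9 rule genes and needed at least 30 observed or expected UMIs, or at least 10 expected where stated, since the first lets a gene enter by being high. CPM are counts per 1000000 UMIs of the cells summed. The ratio calculation was run on simulated sums drawn from the rates of the rest with known changes. The simulation held no separate cells, so it checks the arithmetic and not the weight of a single cell.

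Genes were named by rule: the 9 rule genes, the 20 highest and 10 lowest ratios, up to 4 per list, all interferon ligands and receptors, the sensors, and up to 6 higher and 6 lower for each ozone library, leaving out mitochondrial, ribosomal, sex-linked, haemoglobin, antigen receptor and predicted genes. Others are said to be chosen after their values were seen. The text gives examples of these. No doublet caller was run. RefSeq promoter tables are of GRCm38.p6, an earlier build than the counts, and were joined by gene symbol. Each group is 1 library, so differences between groups have no replicate check.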

Additional observations from a re-analysis of the deposited data

Results flagged for a closer look

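Barcodes that the macrophage rule left out also held rule-gene transcripts, and ozone stood above filtered air in 3 of 6 comparisons. Over all barcodes left out, the rule genes stood at 15.4 CPM in filtered air, 15.2 at 1 ppm and 84.3 at 1.5 ppm. Among barcodes with at least 5000 UMIs but fewer than 3 macrophage markers, the rule genes stood at 108 CPM in filtered air (54 barcodes), 132 CPM at 1 ppm (31 barcodes) and 183 CPM at 1.5 ppm (132 barcodes). Without the highest barcode of each library the values were 78.6, 102 and 89.9 CPM. The highest at 1.5 ppm held 113 rule-gene UMIs and 144 UMIs of conventional dendritic cell markers. Of these 217 barcodes 28.6% lay at or above the members' limit, and 12 held at least 3 rule genes. Among barcodes under 5000 UMIs the rule genes stood at 61.1 CPM at 1.5 ppm and 13.1 CPM in filtered air, with 11.5 CPM at 1 ppm. The highest such barcode at 1.5 ppm held 64 rule-gene UMIs and 111 UMIs of neutrophil markers, and without it the value was 43.0 CPM. Among barcodes left out only for over 10% mitochondrial UMIs the values were 6.88 CPM in filtered air, 3.85 at 1 ppm and 2.22 at 1.5 ppm. The differences between libraries were not tested.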

How the results depend on the processing

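No paired analysis was possible because each group is 1 pooled library. Several alternatives were chosen after seeing the data: at least 10 expected UMIs, members left out, depth classes and another seed. Most counts and medians kept their direction, and 130 of 167 alternative values moved little. Shares: the ratio of members over air, 0.567 at 1 ppm and 1.07 at 1.5 ppm, was 0.212 and 0.494 with cells thinned to 5000 UMIs before ranking and 0.222 and 0.518 for at least 3 rule genes, and at 1.5 ppm 0.647 without Isg15 in the score. Genes higher than in the rest numbered 191, and 113 with 5 of 8 macrophage markers, 105 without cells carrying markers of another type, 445 and 64 with at least 10 and 100 UMIs per gene, 98 without filtered air, 117 with at least 10 expected UMIs and 115 without the secretory-gene and dendritic-marker members. Genes lower numbered 9, and 33 and 2 in the top 1% and 3%, 66 after thinning, 72 for at least 3 rule genes, 5 with libraries ranked alone, 55 and 1 with at least 10 and 100 UMIs, 22 without 1.5 ppm and 55 with at least 10 expected UMIs. The median log2 ratio of the 60 interferon-stimulated genes, 1.42, was 2.30 after thinning, 2.58 for at least 3 rule genes, 0.94 without filtered air and 0.93 without the 3 highest members. That of the GTPases, 1.43, was 0.35 with at least 100 UMIs. That of class I, 0.35, was 0.28 in the top 3%, 0.66 for at least 3 rule genes, 0.22 without filtered air and 0.55 without 1.5 ppm. Genes different between ozone and air members, 366 at 1 ppm and 252 at 1.5 ppm, were 124 and 149 in the top 3% and 86 and 155 with at least 100 UMIs, at 1 ppm 597 after thinning, and at 1.5 ppm 147 without Isg15 and 417 for at least 3 rule genes. Reversed log2 ratios, members over the rest, were Bpifa1 at -3.26 (top 1%), -3.05 (thinned), -0.30 (without cells carrying other markers), -1.97 (without 1.5 ppm) and -2.49 (without secretory-gene and dendritic-marker members), Ccl5 at -2.46 (without the 3 highest), H2-Eb1 at -0.45 (at least 3 rule genes), -0.014 (5 of 8 markers) and -0.32 (without secretory-gene and dendritic-marker members), Ccl17 at -2.44 and -0.25 (at least 3 rule genes, without cells carrying other markers) and Nr4a3 at -1.49 (at least 3 rule genes). Reversed between ozone and air members were Il1b at 1 ppm, -0.055 (5 of 8 markers), Ccl17 at 1 ppm, 3.32 (at least 3 rule genes), 0.17 (5 of 8), 1.27 (without other markers) and 0.13 (without secretory-gene and dendritic-marker members), Bpifa1 at 1.5 ppm, -1.86 (top 1%), -2.36 (thinned), -2.34 (without other markers) and -2.54 (without secretory-gene and dendritic-marker members), and Nr4a3 at 1.5 ppm, 1.64 (5 of 8), 0.24 (without other markers) and 2.74 (without secretory-gene and dendritic-marker members). The cause was not tested, except that leaving out the members that hold a gene removes its UMIs by construction. Depth limits the few-gene members, where 1 UMI places a shallow cell above the limit.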
